A study of Mus musculus with 32 samples.

Results

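The genes described here are 10 members of the interleukin-1 (IL-1) and interleukin-6 (IL-6) cytokine families, measured in tumor and surrounding stroma of mice that carried the transplantable tumor MCG 101. They are the IL-1 ligands Il1a and Il1b, the antagonist Il1rn, the receptors Il1r1 and Il1r2, the IL-6 family ligands Il6, Il11, Lif and Osm, and the oncostatin M receptor Osmr. The members were taken by name, through the RefSeq identifier of each probe, out of 45616 names with a probe on the array. Where a gene had several probes, the one with the highest mean signal over the 32 arrays stood for it. Of the 10 members, 9 were bright enough to be tested, and Il1a was well above background on only 1 of 32 arrays.

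The hosts were wild type (EP2+/+) or knockout (EP2-/-) for EP2, a receptor of prostaglandin E2 whose gene is Ptger2, and all of them had been implanted with MCG 101 cells. Stroma and tumor of each genotype gave 4 groups of 8 arrays, 4 labelled female and 4 male. The labels give the genotype of the mouse and not that of the implanted cells, and they give neither strain, age nor time of sampling. They state neither which cells the deletion reaches nor whether every array came from a different animal, so p-values measure the spread between these samples. Total RNA of whole pieces was hybridised, so fewer cells of a type and less RNA per cell cannot be told apart.

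IL-1α and IL-1β bind the receptor encoded by Il1r1, which signals through MyD88 to NF-κB and switches on further cytokines, Il6 and cyclooxygenase 2 among them. Il1rn encodes an antagonist that occupies the same receptor without signalling, and Il1r2 a decoy receptor. IL-6, IL-11, leukaemia inhibitory factor (Lif) and oncostatin M (Osm) share the signalling chain gp130, which acts through JAK kinases on STAT3. Osmr is the chain that pairs with gp130 to receive oncostatin M. In tumors these cytokines are known for inflammation, wasting and the recruitment of myeloid cells.

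Before the values, the promoters of 4 ligands are shown, because the first 3 hold a motif of AP-1 or NF-κB, factors that IL-1 activates, and the fourth, that of Il1b, whose level divided the tumor arrays, holds none of the motifs searched. Each line gives the 250 bases before the start site from RefSeq (GRCm38.p6), read 5′ to 3′ on the strand of the gene, with motif matches in capitals. Il11 lies at chr7:4778142-4778391 on the minus strand, Lif at chr11:4257318-4257567 on the plus strand, Il6 at chr5:30012864-30013113 on the plus strand and Il1b at chr2:129371140-129371389 on the minus strand.
Il11: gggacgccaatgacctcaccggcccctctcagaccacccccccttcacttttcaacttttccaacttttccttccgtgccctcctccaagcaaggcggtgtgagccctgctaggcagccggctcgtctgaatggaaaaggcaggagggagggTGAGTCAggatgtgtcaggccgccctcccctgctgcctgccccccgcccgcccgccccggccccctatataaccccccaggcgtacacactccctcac
Lif: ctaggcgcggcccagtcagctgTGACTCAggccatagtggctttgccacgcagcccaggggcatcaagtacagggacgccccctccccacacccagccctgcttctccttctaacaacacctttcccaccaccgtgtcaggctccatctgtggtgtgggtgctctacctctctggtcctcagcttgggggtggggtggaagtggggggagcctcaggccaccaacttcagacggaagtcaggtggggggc
Il6: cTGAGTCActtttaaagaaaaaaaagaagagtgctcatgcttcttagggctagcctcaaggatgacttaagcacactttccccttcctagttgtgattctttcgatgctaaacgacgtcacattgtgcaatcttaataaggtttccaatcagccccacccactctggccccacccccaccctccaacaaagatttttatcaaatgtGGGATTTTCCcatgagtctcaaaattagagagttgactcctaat
Il1b: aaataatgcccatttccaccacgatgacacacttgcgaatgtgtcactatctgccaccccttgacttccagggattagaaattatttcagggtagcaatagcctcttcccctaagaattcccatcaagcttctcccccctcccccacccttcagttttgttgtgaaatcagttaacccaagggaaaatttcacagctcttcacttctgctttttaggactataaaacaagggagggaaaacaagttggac

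The promoters shown for Il11, Lif and Il6 each held an AP-1 motif (TGANTCA, either strand). It began 98 bases before the start site in Il11, 228 in Lif and 249 in Il6. The letters of AP-1 occurred in 6.75% of 32851 promoters of the same length. Il6 also held an NF-κB motif (GGG, any 2 bases and TTTCC), 44 bases before its start site, which occurred in 1.41% of promoters. The motifs TGACGTCA (CRE, in 1.55% of promoters) and TTCNNNGAA (STAT, in 7.02%) were searched as well, and only the promoter of the decoy receptor Il1r2 held one, a STAT motif. Il1a and Il1rn held an AP-1 motif and a second start of Il1rn an NF-κB motif. Another start of Il11, not shown, and a further start of Il1rn held none of the motifs searched. Nor did either start of Il1r1 or the promoter of Osmr. No promoter of Osm was available, so Osm was not searched. A match describes letters in this window and not a bound site.

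The labels were first set against marker genes. Between the tissues 25.7% of 27096 genes were called higher in stroma and 37.1% lower, at an adjusted p under 0.05 in limma. The marker counts stand beside these shares. All 10 skeletal muscle markers, 9 of 10 adipocyte markers and 9 of 9 endothelial markers were called higher in stroma than in tumor, and so were 10 of 12 macrophage markers. Mast cell markers were called higher for 7 of 7 genes, fibroblast markers for 5 of 9 with 2 lower, neutrophil markers for 2 of 14 with 1 lower, T cell markers for 1 of 9 with 1 lower, and only 3 of 10 keratinocyte markers were bright enough to test, 1 of them higher. The Ptger2 probe did not follow the genotype labels: its level was -4.02 ± 0.96 (SD, n = 8) in wild-type and -3.17 ± 0.49 in knockout stroma, and -4.97 ± 0.93 in wild-type and -3.91 ± 0.77 in knockout tumor. The probe was well above background on 6 and 8 of 8 wild-type and knockout stroma arrays, and on 3 and 7 of 8 in tumor. Whether the probe lies inside the deleted part is not known here, so it does not check the labels. On the first principal component, with 58.8% of the variance, wild-type stroma 65 (-68.5) and 82 (-113) lay among the tumor arrays, and wild-type stroma 9 (228) was the farthest from them. By Y-linked genes, 3 of 8 male-labelled stroma arrays (wild-type 9, knockout 95 and 99) and 2 of 8 male-labelled tumor arrays (knockout 95 and 99) looked like the female-labelled ones. Members are given without these arrays where a call or direction rests on them.

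A level is the log2 intensity minus that of the 75th percentile of its array, so 0 marks a probe as bright as that percentile, and levels of different genes are not compared. Il1b, the secreted form of IL-1 made by activated myeloid cells, was well above background on all 32 arrays. In wild-type stroma it ran from -3.68 (median 0.37) to 2.93, and in knockout stroma from -1.35 (median 1.001) to 2.63. In wild-type tumor it ran from -0.49 (median 0.28) to 5.13, and in knockout tumor from -0.88 (median 0.96) to 3.83. All 4 groups overlapped between -0.49 and 2.63. Wild-type tumor was split, with 5 arrays between -0.49 and 0.30 and the arrays 9, 65 and 82 at 3.81, 4.32 and 5.13. Knockout tumor was spread without such a gap, and its array 81 (3.83) was the only other array above 3. The 75th percentile of the processed signal was 402, 557 and 484 in wild-type tumor 9, 65 and 82, the lowest of all tumor arrays. These arrays were scanned on the second day, as were some other tumor arrays. Knockout tumor 81, at 1082, was scanned on the first day. Whether this bears on their Il1b levels was not tested.

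Il1a, the other agonist, was below the limit of measurement nearly everywhere. Its single measured value was -2.07 in wild-type tumor 5, and the other 31 arrays lay between -8.03 and -6.08. That array also had the most outlier spots (483) and missing values (372) of all arrays. Its share of probes well above background (74.6%) was the largest too, so the value may not reflect expression. Il1rn, the antagonist, had medians of -0.27 in wild-type stroma, -0.38 in knockout stroma, -0.57 in wild-type tumor and -0.0033 in knockout tumor, and its groups overlapped throughout. Its lowest value was that of wild-type stroma 9 (-6.98, not well above background), and its highest values were those of knockout tumor 81 (2.38) and wild-type tumor 82 (2.22), which were also high for Il1b.

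**Figure D1:**
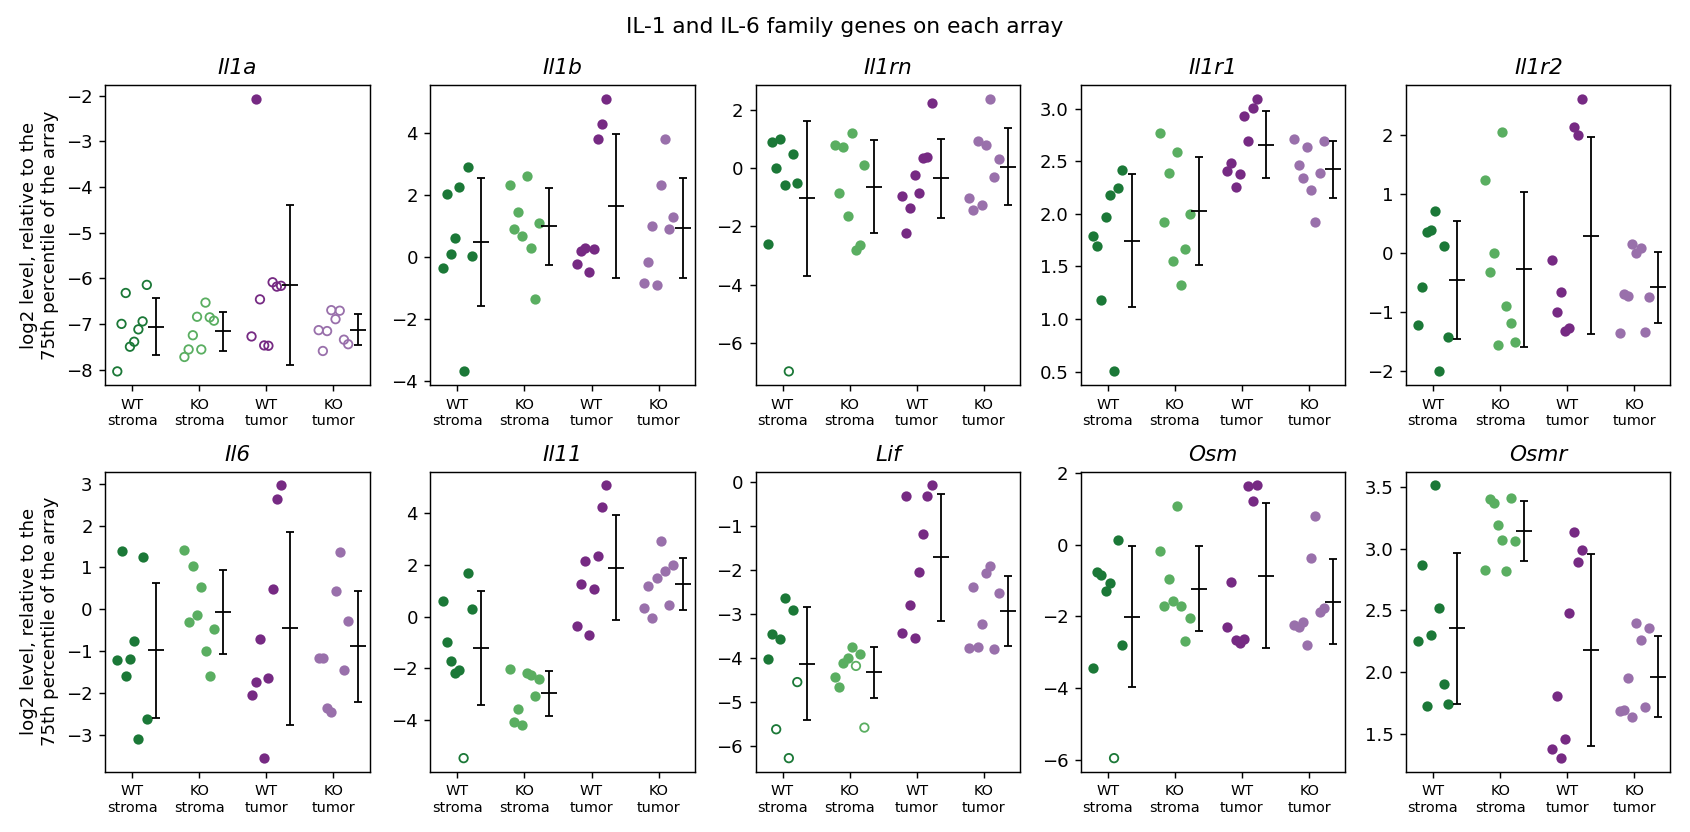
Log2 level of each gene on each array (y axis, relative to the 75th percentile of the array) in the 4 groups of 8 arrays (x axis). Filled points are well above background and open points are not, and the bar beside each group is the mean ± SD. Il11 and Lif sit higher in tumor than in stroma, while Il1b, Il1rn, Il6 and Osm span several log2 units within each group.

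Stroma and tumor were compared next, over all 32 arrays and with both genotypes averaged. Il11 and Lif, both IL-6 family ligands, and the signalling receptor Il1r1 were lower in stroma, and Osmr was higher. In this comparison 62.8% of 27096 genes passed an adjusted p of 0.05 (25.7% higher and 37.1% lower in stroma), and 4 of 9 tested members did, 1 higher and 3 lower. Their median difference was -0.55, against -0.14 over all genes.

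Il11, a cytokine known from bone, platelets and fibrosis, set the tissues apart most among the members. In wild-type stroma its level ran from -5.46 (median -1.34) to 1.69 and in knockout stroma from -4.16 (median -2.73) to -2.02. In wild-type tumor it ran from -0.72 (median 1.70) to 5.07 and in knockout tumor from -0.06 (median 1.33) to 2.93. The tissues did not overlap in knockout hosts, whereas in wild-type hosts 3 stroma arrays (1, 65 and 82, at 0.59, 1.69 and 0.31) reached into the tumor range. The fitted difference was -3.66 ± 0.52 (SE), a 12.7-fold lower level in stroma, with an adjusted p of 1.26e-06, and 15 of 16 stroma arrays were below the tumor median. Stroma was lower on 6 of 6 slides, by -5.79 to -2.67 in plain array means. Without wild-type stroma 65 and 82 it was -4.26, and without wild-type tumor 9, 65 and 82 it was -3.14. The latter were chosen after the values were seen, as the wild-type tumor arrays highest for Il1b.

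Lif, which maintains stem cells in culture and acts on muscle and fat, ran the same way. Its level was -4.13 ± 1.28 (SD, n = 8) in wild-type and -4.33 ± 0.58 in knockout stroma, where it was well above background on 5 and 6 of 8 arrays. In tumor it was measured on all arrays, at -1.72 ± 1.44 in wild-type and -2.94 ± 0.80 in knockout hosts. All 16 stroma arrays were below the tumor median, although the ranges overlapped. The difference was -1.90 ± 0.36 (SE; adjusted p 4.63e-05), a 3.74-fold lower level in stroma, and stroma was lower on 6 of 6 slides. Without wild-type stroma 65 and 82 it was -1.99 (adjusted p 5.32e-05).

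Il1r1, the receptor through which both IL-1 agonists signal, was 1.57-fold lower in stroma (-0.65 ± 0.16, adjusted p 0.00111). Its means were 1.75 ± 0.63 (SD, n = 8) and 2.03 ± 0.52 in wild-type and knockout stroma and 2.66 ± 0.32 and 2.42 ± 0.27 in wild-type and knockout tumor. Without wild-type stroma 65 and 82 its difference was -0.78 (adjusted p 1.67e-04). Osmr was the one member called higher in stroma, by 0.68 ± 0.14 (adjusted p 2.15e-04), a 1.60-fold difference. Its order from the lowest mean was knockout tumor (1.96 ± 0.33), wild-type tumor (2.18 ± 0.78), wild-type stroma (2.35 ± 0.61) and knockout stroma (3.14 ± 0.24). Neighbours in this order overlapped within their SD, and wild-type stroma 4 (3.51) lay above every knockout stroma array.

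The remaining members did not pass between the tissues. The differences were -0.55 ± 0.54 (adjusted p 0.388) for Il1b, -0.70 ± 0.59 (0.315) for Il1rn and -0.22 ± 0.39 (0.634) for the decoy Il1r2. They were 0.15 ± 0.47 (adjusted p 0.799) for Il6 and -0.39 ± 0.51 (0.519) for Osm. Without wild-type tumor 9, 65 and 82 the values for Il1b, Il1r2 and Osm were 0.23, 0.44 and 0.38, and since those arrays were left out for their high Il1b, the sign of Il1b and of genes that ran with it follows from that choice. These p-values do not show that the tissues had equal levels.

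Taken by host, 3 of 9 members were called in wild-type hosts, where 30.2% of genes were (11.9% higher and 18.3% lower in stroma), and 3 of 9 in knockout hosts, where 59.4% were (26.3% higher and 33.1% lower). Il11 differed by -3.10 ± 0.73 (adjusted p 0.00366) in wild-type and by -4.23 ± 0.73 (2.25e-05) in knockout hosts. Lif differed by -2.41 ± 0.50 (adjusted p 0.00144) and -1.40 ± 0.50 (0.0194). Il1r1 was called in wild-type hosts only (-0.91 ± 0.23, adjusted p 0.00601, against -0.40 ± 0.23, 0.144) and Osmr in knockout hosts only (1.18 ± 0.20, adjusted p 2.19e-05, against 0.17 ± 0.20, 0.535). With array weights Il1r1 was called in knockout hosts too (-0.61, adjusted p 2.55e-04, with 74.1% of all genes called), and Lif in knockout hosts was not called with slide as a fixed block (-1.05, 0.146, with 52.6%). The difference between the hosts itself did not pass for either gene (adjusted p 0.357 for Il1r1 and 0.117 for Osmr), and without wild-type stroma 65 and 82 Osmr passed in wild-type hosts as well (0.47, adjusted p 0.0467, with 47.6% of all genes called). Stroma and tumor arrays did not overlap for Il11 and Osmr in knockout hosts, as for 31.1% of genes there, and did so in wild-type hosts, where 0.738% of genes did not overlap. Without wild-type tumor 9, 65 and 82, which leaves 1 male-labelled wild-type tumor that is assumed to vary like the others, none of the 3 calls in wild-type hosts remained. The values were then -2.05 for Il11, -1.84 for Lif and -0.91 for Il1r1. That fit held fewer arrays. The value of Il1r1 was the same as with all of them, while the differences of Il11 and Lif were smaller. Why the calls were lost was not tested.

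**Figure D2:**
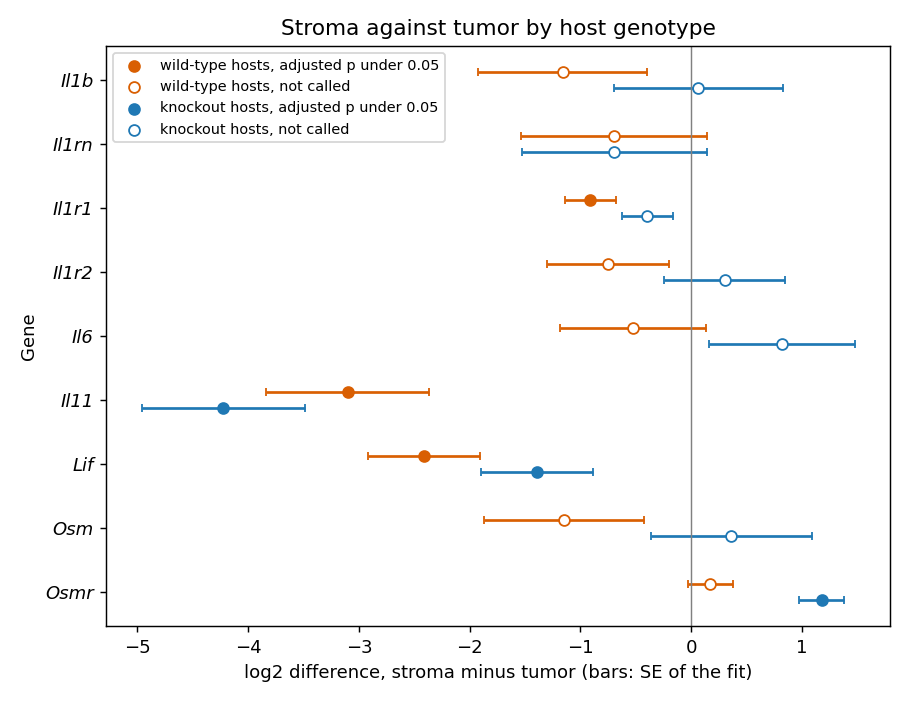
Log2 difference between stroma and tumor (x axis, stroma minus tumor, bars are the SE of the fit) for the 9 tested genes (y axis) in wild-type and knockout hosts. Filled points passed an adjusted p of 0.05; Il11 and Lif lie left of 0 in both hosts, and Osmr lies right of 0 at 1.18 in knockout hosts.

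The other genes of the pathways were taken from lists of known family members, receptors, signalling genes and targets. The lists also hold the members described above, which are counted in them. Their counts stand beside the 62.8% of all genes called here (25.7% higher and 37.1% lower), and a share near it says nothing about a list. Of the 8 IL-6 family receptor genes, the member Osmr included, all 8 were higher in stroma and 7 passed, with a list median of 1.16. They were led by Lifr, the receptor of LIF (4.10 ± 0.42, adjusted p 3.93e-08), by Il6st, which encodes gp130 (1.42 ± 0.19, 5.24e-07), by Cntfr (2.41 ± 0.33, 7.54e-07) and by Il11ra1, the receptor of IL-11 (1.33 ± 0.21, 3.67e-06). The ligands Il11 and Lif were lower in stroma and the receptor genes Il11ra1 and Lifr higher. Among the other IL-6 family ligands Clcf1 was lower in stroma (-2.43 ± 0.45, adjusted p 3.85e-05) and Ctf1, cardiotrophin 1, higher (0.92 ± 0.22, 6.96e-04), and 5 of 10 ligands passed in all, 2 higher and 3 lower.

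The IL-1 family receptors went the other way, with 6 of 8 tested genes lower in stroma, 5 of them called and none called higher (median -1.11). They were Sigirr, an inhibitory receptor (-1.57 ± 0.19, adjusted p 1.71e-07), Il1rap, the accessory chain of the IL-1 receptor (-2.36 ± 0.31, 5.16e-07), Il18rap (-1.86 ± 0.38, 1.30e-04), the IL-33 receptor Il1rl1 (-1.60 ± 0.33, 1.62e-04) and Il1r1 itself. Of the IL-1 ligands Il18 was higher in stroma (1.43 ± 0.34, adjusted p 7.24e-04) and Il33 lower (-1.08 ± 0.26, 8.57e-04). Among processing genes 4 of 9 passed, with S100a10 (-1.65 ± 0.26), Casp1, which cleaves pro-IL-1β (-1.42 ± 0.31), and Aim2 (-0.98 ± 0.36) lower and Nlrc4 (1.53 ± 0.33) higher. Among 12 signalling genes 5 were called higher, led by Irak3, an inhibitor of IL-1 signalling (2.41 ± 0.32), and Tab2 (1.14 ± 0.18), and 4 lower, led by the NF-κB subunits Rela (-0.45 ± 0.073) and Nfkb1 (-0.60 ± 0.14).

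Of 21 genes known to be induced by NF-κB or IL-1, 12 passed, 9 of them lower in stroma. Nfkbiz, an NF-κB cofactor (-1.84 ± 0.28, adjusted p 3.68e-06), Ptgs2, which encodes cyclooxygenase 2 (-3.48 ± 0.56, 6.52e-06), and Csf3, the granulocyte growth factor (-2.85 ± 0.49, 1.36e-05), were lower, and the protease gene Mmp3 was higher (4.09 ± 0.61, 2.57e-06). Of 15 genes of JAK-STAT3 signalling 6 were called higher in stroma, led by Cish (2.47 ± 0.33, adjusted p 5.43e-07), Fgl2 (2.50 ± 0.43, 1.61e-05), Jak2 (0.78 ± 0.16, 9.55e-05) and Pim1 (0.92 ± 0.23, 0.00131), and 1 was called lower. Beside these counts stand the muscle, fat and endothelial markers, whose list medians were 6.21, 5.25 and 1.42 higher in stroma. Their part in the pathway differences was not tested.

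Host genotypes were compared within each tissue. In stroma none of 9 members and none of 24772 genes (0%) passed in limma, while 28.2% of genes were under 0.05 before adjustment and the lowest adjusted p of any gene was 0.113. Of the members 2 had an unadjusted p under 0.05, Osmr and Il11.

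Osmr ran from 1.73 (median 2.28) to 3.51 in wild-type stroma and from 2.82 (median 3.13) to 3.41 in knockout stroma. All 8 knockout arrays were above the wild-type median, and the wild-type arrays 5 (2.87) and 4 (3.51) reached into the knockout range. The difference of 0.79 ± 0.25 (p 0.00721, adjusted p 0.12) had the same sign on 5 of 5 slides that held both genotypes, by 0.31 to 1.67. It passed when array weights (1.19, adjusted p 2.92e-05), the replicate block (0.79, 0.0151) or all arrays in one fit (0.79, 0.015) were used, and without wild-type stroma 4 (0.97, 0.0104) or 9 (0.81, 0.0326). Under these settings 65.2%, 16.5%, 16%, 21.0% and 33.9% of all genes passed too, in the same order. It was 0.49 (adjusted p 0.662) without wild-type stroma 65 and 82, and 0.24 (0.562) without 9, 65 and 82.

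Il11 ran the other way in stroma. All 8 knockout arrays were below the wild-type median, and 5 wild-type arrays (45, 5, 82, 1 and 65, between -1.71 and 1.69) lay above every knockout array. The difference was -1.74 ± 0.80 (p 0.0471, adjusted p 0.173), and knockout was lower on 4 of 5 slides. It passed with array weights (-3.25, adjusted p 1.21e-05), without the arrays against their sex label (-2.30, 0.0328) and without wild-type stroma 9 (-2.42, 0.00786), and was -0.55 (0.815) without 65 and 82. Of all genes 65.2%, 22.9% and 33.9% passed under the first 3 of these settings. Il6, the founding member of its family, was 0.91 ± 0.62 higher in knockout stroma (adjusted p 0.32), with 7 of 8 arrays above the wild-type median. Il1b (0.51 ± 0.83), Il1rn (0.40 ± 1.02), Il1r1 (0.28 ± 0.30), Il1r2 (0.18 ± 0.58), Lif (-0.20 ± 0.50) and Osm (0.78 ± 0.78) had differences no larger than about their standard errors.

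In tumor none of 9 members and none of 23730 genes (0%) passed in limma, and 3.32% of genes had an unadjusted p under 0.05. The member differences were negative for 8 of 9, with a median of -0.62 against 0.0046 over all genes, and only Il1rn was positive (0.39 ± 0.51). Lif had the smallest p. Its level ran from -3.56 (median -1.62) to -0.08 in wild-type tumor and from -3.81 (median -2.88) to -1.93 in knockout tumor, and all 8 knockout arrays were below the wild-type median. The wild-type arrays 9, 65, 5 and 82 lay above every knockout array. Of these, array 5 had the most outlier spots of all arrays (483). The difference was -1.22 ± 0.48 (p 0.0222, adjusted p 0.976), and knockout was lower on 2 of 3 slides. Without wild-type tumor 9, 65 and 82 the difference kept its sign and was smaller, with array 5 still in. The female-labelled wild-type arrays then averaged -2.53, and the male-labelled one left was at -2.05. Knockout means were -3.29 in female-labelled and -2.58 in male-labelled tumor.

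The other tumor differences were -0.72 ± 0.62 for Il1b, -0.87 ± 0.48 for Il1r2, -0.43 ± 0.65 for Il6, -0.62 ± 0.59 for Il11 and -0.73 ± 0.59 for Osm. Without wild-type tumor 9, 65 and 82 the values were 0.84, 0.45, 0.95, 0.43 and 0.83. These signs follow from leaving out the wild-type tumor arrays highest for Il1b, while knockout tumor 81 (Il1b 3.83) stayed in. Il1r1 (-0.23 ± 0.12) and Osmr (-0.22 ± 0.14) had the smallest errors and did not pass either. Neutrophil markers moved with these members: 13 of 13 were lower in knockout tumor, none called, and their mean level ran from -0.61 to 2.35 in wild-type and from -0.97 to 0.64 in knockout tumor. Their part in the member differences was not tested.

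**Figure D3:**
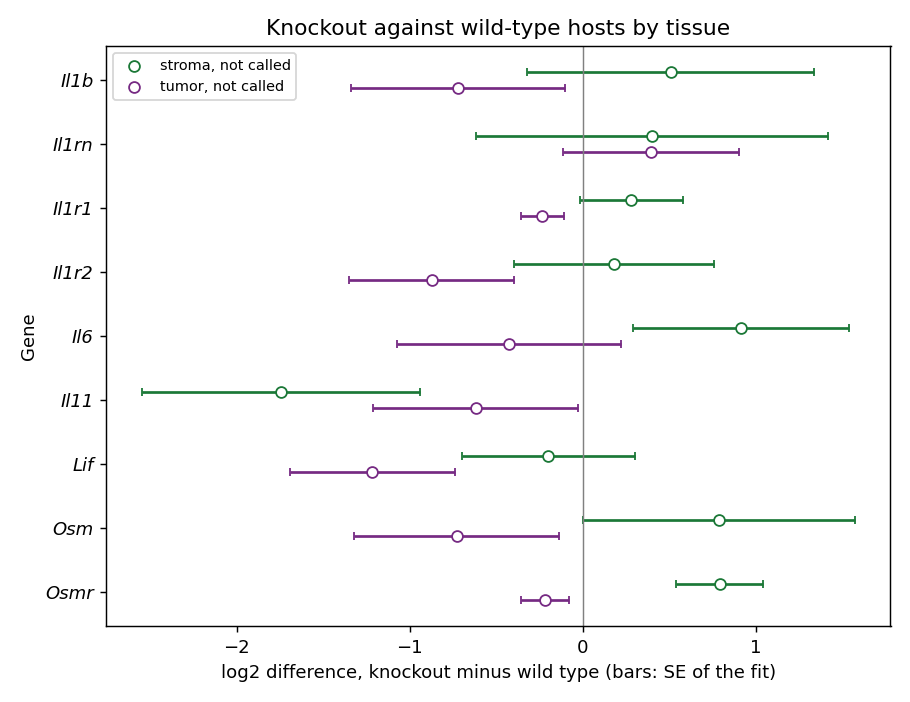
Log2 difference between knockout and wild-type hosts (x axis, knockout minus wild type, bars are the SE of the fit) for the 9 tested genes (y axis) in stroma and in tumor. No point passed an adjusted p of 0.05; Osmr in stroma (0.79) and Lif in tumor (-1.22) lie farthest from 0 for their errors.

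Whether the genotype difference itself changed with tissue was tested directly. None of 9 members and none of 27096 genes (0%) passed in limma, while 21.1% of genes had an unadjusted p under 0.05. Osmr had the largest difference for its error, 1.01 ± 0.29 (stroma minus tumor, p 0.00173, adjusted p 0.117), and was the only member with an unadjusted p under 0.05. It passed with array weights (1.35, adjusted p 6.53e-06) and when knockout stroma 12 (1.07, 0.0447) or wild-type stroma 4 (1.19, 0.0061) or 9 (1.02, 0.0183) was left out. Of all genes 48.7%, 3.6%, 9.32% and 19.6% passed under these settings. It was 0.71 (adjusted p 0.529) without wild-type stroma 65 and 82 and 0.46 (0.363) without 9, 65 and 82. The values for Il11 and Lif were -1.12 ± 1.04 and 1.02 ± 0.71.

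No pathway gene of the lists passed between genotypes in either tissue. In stroma all 8 IL-6 family receptors, Osmr included, had positive differences, with a list median of 0.78 against 0.08 over all genes. Lifr had the largest difference (1.78 ± 0.64, adjusted p 0.124 in limma). The IL-1 receptor genes Sigirr (-1.23 ± 0.32, adjusted p 0.12) and Il1rap (-1.64 ± 0.58, 0.123) had negative ones, and the 8 tested genes of that list were divided, 4 higher and 4 lower (median -0.28). Of 15 JAK-STAT3 genes 14 had positive differences, Fgl2 (1.23 ± 0.40, adjusted p 0.121) and Junb (0.55 ± 0.19, 0.123) with the smallest p. In the same arrays 10 of 10 muscle and 10 of 10 adipocyte markers had positive differences, with medians of 1.40 and 2.18, none called. So had 12 of 12 macrophage (median 0.96), 9 of 9 endothelial (0.66), 7 of 7 mast cell (0.76), 9 of 9 T cell (0.58), 7 of 9 fibroblast (0.56) and 8 of 13 neutrophil markers (0.15), none called. Their part in the list values was not tested.

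The tumor arrays were also split by sex label, a comparison added after the values were seen. No gene of 23730 (0%) passed in limma and 7.22% had an unadjusted p under 0.05, with a smallest adjusted p of 0.241. All 9 members had higher means in male-labelled tumor, and 8 of them had an unadjusted p under 0.05. The median member difference was 1.60, against -0.0029 over all genes.

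Osmr ran from 1.31 (median 1.66) to 1.95 in female-labelled and from 1.72 (median 2.44) to 3.14 in male-labelled tumor. The ranges overlapped between 1.72 and 1.95, and the difference was 0.91 ± 0.14 (p 1.02e-05, adjusted p 0.241). Il1b ran from -0.88 (median -0.19) to 0.999 in female-labelled and from 0.25 (median 3.08) to 5.13 in male-labelled tumor. Its difference was 2.87 ± 0.62 (adjusted p 0.332), a 7.30-fold higher level, and it was positive on 5 of 5 slides. Differences of 2.47 ± 0.65 for Il6, 2.11 ± 0.59 for Osm, 1.82 ± 0.59 for Il11 and 1.60 ± 0.51 for Il1rn went the same way, and Il1r1 (0.16 ± 0.12) had the smallest.

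Leaving out 1 array at a time called 0 to 5 members, and 5 were called without wild-type tumor 4, where 0.231% of all genes were. That array was the lowest male-labelled one for Il1b, so a larger Il1b difference follows from leaving it out. The 5 were Osmr (0.98, adjusted p 0.0119), Il1b (3.39, 0.0113), Osm (2.63, 0.0174), Il1r2 (1.59, 0.0431) and Il6 (2.92, 0.0474). Without the 2 tumor arrays against their label Osmr passed (0.99, adjusted p 0.0213), as it did without knockout tumor 95 alone (0.99, 0.0486), with 0.109% and 0.00428% of all genes called. Without both arrays the differences of Il1b (3.36, adjusted p 0.10), Il6 (2.91, 0.171), Osm (2.62, 0.171), Il11 (2.10, 0.238) and Il1rn (1.99, 0.196) did not pass. With array weights Osmr, Il1b and Il6 passed, and 0.101% of all genes. Without wild-type tumor 9, 65 and 82 the Il1b difference was 1.31 (adjusted p 0.994) and that of Osmr 0.72 (0.994). All 13 neutrophil markers tested were also higher in male-labelled tumor, none called, with a median of 0.47 for their mean level against -0.32 in female-labelled tumor. Their part was not tested.

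**Figure D4:**
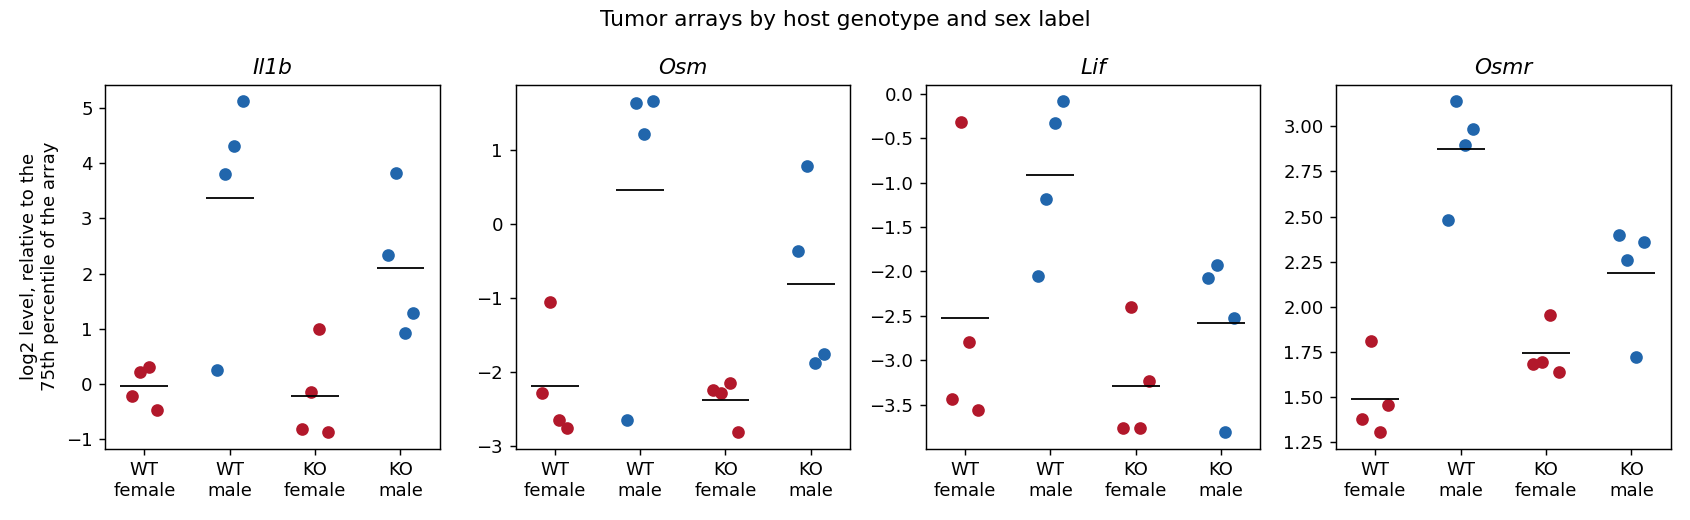
Log2 level (y axis, relative to the 75th percentile of the array) of Il1b, Osm, Lif and Osmr on the 16 tumor arrays, by host genotype and sex label (x axis; WT wild type, KO knockout). Points are arrays and lines are means of 4 arrays; for Osmr the female-labelled arrays lie between 1.31 and 1.95 and the male-labelled ones between 1.72 and 3.14.

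The members were then compared with one another over the 16 arrays of each tissue, in 18 relations of Il1b with the other 9. Il1a, well above background on 1 array only, is counted in these and in the later relations. Of these 13 passed after Benjamini-Hochberg adjustment by Pearson's r, and 12 by Spearman's rho as well. Of all genes 2.39% in tumor and 13.9% in stroma had an r with Il1b at least as far from 0 as the weakest of the members that passed there, given as a description with no test. By Pearson's r Osm, made by neutrophils and macrophages, followed Il1b most closely among the members. By rho Il6 was closer in stroma. In tumor Osm had r = 0.95 and rho 0.85 (permutation p 1e-05 and 7e-05, adjusted 6e-05 and 5.4e-04). In stroma Osm had r = 0.92 and rho 0.85 (permutation p 1e-05 and 9e-05, adjusted 6e-05 and 5.4e-04). A permutation p of 1e-05 is the smallest that 100000 resamples give. Without the 2 arrays farthest from the median of Il1b, r of Osm was 0.92 in tumor and 0.80 in stroma. Within the genotypes it was 0.96 and 0.94 in wild-type and knockout tumor and 0.93 and 0.88 in the stroma of each, and within the 2 scan days 0.97 and 0.97 in tumor and 0.82 and 0.94 in stroma.

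Il6 followed Il1b with r = 0.91 (rho 0.83, adjusted permutation p 6e-05 and 7.2e-04) in tumor and 0.84 (rho 0.88, adjusted 1.8e-04 and 5.4e-04) in stroma. The antagonist Il1rn followed it with 0.80 (rho 0.77) and 0.87 (rho 0.71), and the decoy Il1r2 with 0.83 (rho 0.57) and 0.70 (rho 0.65), all with adjusted permutation p of 0.036 or less. Osmr was related to Il1b in tumor (r = 0.85, rho 0.79, adjusted permutation p 1.35e-04 and 0.00216) and did not pass in stroma (0.16, rho 0.26, adjusted 0.601 and 0.372). Il11 likewise had r = 0.79 (rho 0.73, adjusted permutation p 6.3e-04 and 0.00483) in tumor and 0.44 (rho 0.25, adjusted 0.112 and 0.374) in stroma, and the difference between the tissues was not tested. Il1r1 passed in stroma (r = 0.77, rho 0.66) and not in tumor (0.23, rho 0.09), where r was 0.77 within wild-type and -0.86 within knockout hosts.

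Some of these relations rest on few arrays. Without the 2 arrays farthest from the median of Il1b, 9 of the 18 passed, and r fell to 0.58 for Il1r1 and 0.30 for Lif in stroma and to 0.57 for Il11 and 0.48 for Lif in tumor. Within the sexes, r with Il1b in tumor was 0.98 for Osm and 0.95 for Il6 over the 8 male-labelled arrays, and 0.39 and 0.13 over the 8 female-labelled arrays, whose Il1b ran from -0.88 to 0.999. Over the 6 male-labelled tumor arrays that matched their label r was 0.97 for Osm and 0.94 for Il6. Within scan days the relation of Il1rn in stroma was 0.02 over the 7 arrays of the first day and 0.92 over the 9 of the second, which hold wild-type stroma 9.

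**Figure D5:**
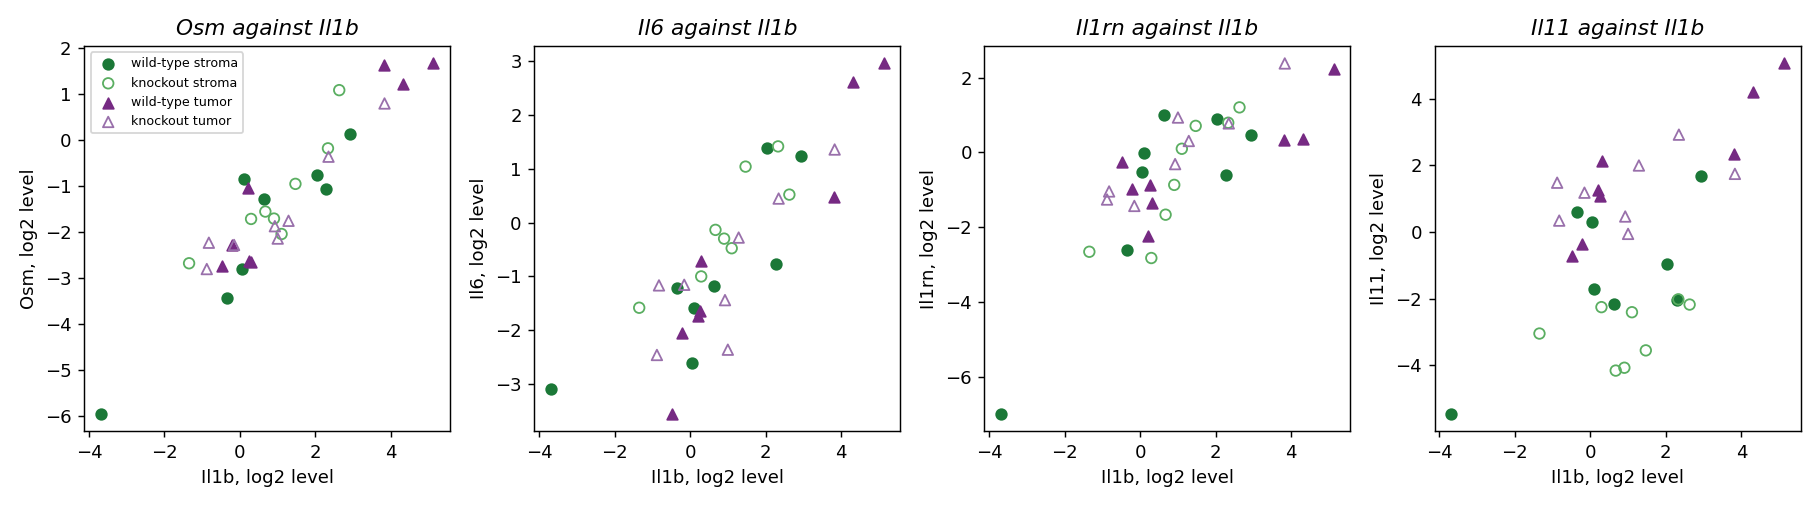
Log2 level of Osm, Il6, Il1rn and Il11 (y axes) against that of Il1b (x axis) on the 32 arrays, circles for stroma and triangles for tumor, filled for wild-type and open for knockout hosts. Osm follows Il1b in both tissues (r = 0.92 in stroma and 0.95 in tumor), while for Il11 the tissues lie apart; the point at the lower left is wild-type stroma 9.

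Levels of the neutrophil markers ran with the same members. Their mean over 14 genes was related to 14 of 20 member levels, and 6.53% of all genes in tumor and 13.2% in stroma had an r as far from 0 as the weakest of them there. In tumor r was 0.92 for Osm (rho 0.83, adjusted permutation p 1e-04 and 0.0019), 0.90 for Il1b (rho 0.82, adjusted 1e-04 and 0.0019) and 0.90 for Il1r2 (rho 0.68, adjusted 4e-04 and 0.0127). In stroma r was 0.84 for Il1rn (rho 0.67, adjusted permutation p 5.5e-04 and 0.0129) and 0.83 for Il1b (rho 0.78, adjusted 5.67e-04 and 0.0037). Without the 2 arrays farthest from the median of the marker mean 10 passed, and r was 0.83 for Il1b in tumor and 0.70 in stroma. Within the scan days r for Il1b was 0.84 and 0.98 in tumor and 0.07 and 0.82 in stroma. Osmr was related to the marker mean in tumor (0.80, rho 0.64) and did not pass in stroma (0.15, rho 0.19). Over the male-labelled tumor arrays r was 0.87 for Osmr, 0.98 for Il1r2, 0.93 for Il1b and 0.92 for Osm. Over the female-labelled ones it was -0.09, 0.01, 0.67 and 0.60 in the same order.

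A stroma and a tumor piece shared a number, genotype and sex label in 15 cases. None of the 10 members was related between the pieces of one number after adjustment, and the lowest adjusted permutation p was 0.599. Il1a is counted among the 10, although its values were nearly all background. For Il1b r was -0.20 (rho -0.08, permutation p 0.489 and 0.792, adjusted 0.727 and 0.881), for Il11 0.33 (rho 0.11, adjusted 0.727 and 0.881) and for Osmr -0.10 (rho 0.09, adjusted 0.816 and 0.881). Wild-type 65 and 82, for instance, were the highest arrays for Il1b in tumor with 4.32 and 5.13, while in stroma they were 2.93, the highest of their group, and 0.04.

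Over all 32 arrays the genes most like each member were looked up among 15876 genes, as a description that shares arrays, tissue and cell content. Il1b and Osm were each other's near neighbours (r = 0.93), together with Cd14, the lipopolysaccharide co-receptor of myeloid cells (0.93 with Il1b and 0.95 with Osm). Il1rn was most like Clec4e (0.96), Bcl2a1c (0.93) and Msr1, a scavenger receptor of macrophages (0.92). Il1r2 was most like Rab11fip1 (0.86), Hmox1 (0.86) and Cd14 (0.84), and Il6 like Il1b (0.86), Junb (0.82) and Osm (0.81).

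The members called between the tissues had other neighbours. Il11 was most like Ptgs2 (r = 0.94), with 0.93 within stroma and 0.89 within tumor, followed by Gsto2 (0.94) and Cpne7 (0.94). Lif was most like Gipr (0.84), Hcar2 (0.83) and Rab27b (0.83). Il1r1 was most like Emilin2 (0.87), the growth factor gene Hgf (0.85) and Fndc3b (0.85), and Osmr like Nnmt (0.86), St3gal1 (0.85) and Zfp36l1 (0.85). The nearest gene of the barely measured Il1a, 4930556J02Rik (0.91), had r = 0.97 in tumor and 0.32 in stroma, where no Il1a value was above background. In tumor only wild-type tumor 5, the array with the most outlier spots, held an Il1a value well above background.

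For 6 members a second probe was on the array. It had r = 0.996 with the first for Il6, 0.94 for Il1b and Osmr, 0.74 for Il1rn and 0.71 for Il1r2 over the 32 arrays. The second Osm probe was well above background on 3 arrays only (r = 0.42).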

How the data were processed

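Total RNA of 16 stroma and 16 tumor pieces was labelled with Cy3 and hybridised to 1-colour Agilent arrays on 6 slides, scanned on 2 days. The deposited intensity values come from Agilent Feature Extraction (version 10.7.3.1 in the processing notes of the submitters), already background-corrected, with the other deposited columns holding its flags per the file headers. The authors' deposited log2 values of the series table differed by at most 0.02 from the scaled values used here for 99.6% of probes in stroma and 98.9% in tumor. No value column lacked a sample (0 columns).

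The log2 intensity minus that of each array's 75th percentile was used; outlier spots were dropped (58 to 483 an array), replicate spots averaged, and no spot was saturated. The 75th percentile ran from 402 to 1133 and 47.7% to 74.6% of probes were well above background, which limits the precision for dim probes. Of 56605 probes, 32994 matched RefSeq, giving 22911 symbols. A gene was tested where its probe was well above background on 8 arrays of the fit. limma 3.58.1 (R 4.3.3) fitted a mean per tissue, genotype and sex label, with Benjamini-Hochberg adjustment over all genes and a threshold of 0.05. Correlations used permutation tests with 100000 resamples (scipy 1.17.1). Scripts were tested on simulated data. Named were all members, the 4 genes of each list with the smallest adjusted p (2 where none passed) and the 3 most alike genes. The members, lists and tests were chosen with earlier results of these data known. Alternatives were scaling, background correction, filters, probe choice, slide, array weights, replicate block and left-out arrays.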

Additional observations from a re-analysis of the deposited data

Results flagged for a closer look

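In 40 groups of 8 arrays, 1 gene and group each, 2 held an array whose gap to its neighbour was beyond Dixon's 95% critical value, and chance flags about 1 in 20 groups. Il1a was at -2.07 in wild-type tumor 5, the only array where it was well above background. That array had the most outlier spots of all arrays (483). Il1rn was at -6.98 in wild-type stroma 9, where it was not well above background.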

How the results depend on the processing

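Calls of members between stroma and tumor were 4 under every left-out array and 3 in wild-type and in knockout hosts. They were 2, 1 and 1 where a probe had to be well above background on all arrays, which leaves 5 members tested, and 0 in wild-type hosts without wild-type tumor 9, 65 and 82. In stroma, array weights called 2 members between genotypes, and 1 was called without the arrays against their sex label, with all arrays in one fit and with the replicate block. Leaving out 1 array gave 0 to 2 there, 0 to 0 in tumor, 0 to 1 for genotype by tissue and 0 to 5 for the sex label. Array weights called 2 members for genotype by tissue and 3 for the sex label, where 1 was called without the arrays against their label. The stroma genotype count of all genes was 0, and 16140 with array weights, 4480 with the replicate block, 4337 with all arrays in one fit, 5510 with the arrays that go against the sex label left out, 8323 without array 9 and 5116 without array 4 of wild-type stroma. For genotype by tissue it ran from 0 to 13197 over the alternatives and for the sex label from 0 to 54. Between stroma and tumor it ran from 10902 to 18931, in wild-type hosts from 2581 to 12886 and in knockout hosts from 10365 to 20077. The replicate block rests on shared numbers that the labels do not tie to an animal, and a pairing was not established: over 15 pairs the correlation of deviations ran from -0.0439 to 0.343, and 3 arrays correlated best with their own number. Lif in knockout hosts was -1.05 (adjusted p 0.146) with slide as a fixed block. The causes were not tested.

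The direction turned only for members that had not passed, whose values were as follows. With array weights, the values were Il1b -0.96, Il1rn -1.18, Il1r1 -0.016, Il1r2 -0.30, Il6 -0.28 and Osm -0.67 for genotype in stroma, Il1rn -0.19 for genotype in tumor, Osmr -0.057 for stroma minus tumor in wild-type hosts, Il1b -0.22 and Il1r2 -0.027 for stroma minus tumor in knockout hosts and Il1rn -1.002 for genotype by tissue. With the arrays that go against the sex label left out, the values were Il1rn -0.33 for genotype in stroma, Il6 0.013 for genotype in tumor, Il1rn 0.15 for stroma minus tumor in wild-type hosts, Il1b -0.033 for stroma minus tumor in knockout hosts and Il1rn -1.12 for genotype by tissue. Without wild-type stroma 9, 65 and 82, the values were Il1b -0.44, Il1rn -0.26 and Il1r2 -0.50 for genotype in stroma, Il1r2 0.12 for stroma minus tumor and Il1rn -0.65 for genotype by tissue. With mean of all probes, the values were Il1rn -0.074 for genotype in tumor and Il1b -0.13 for stroma minus tumor in knockout hosts. Without knockout tumor 51 and 81, the values were Il1rn -0.14 for genotype in tumor. Wild-type tumor 9, 65 and 82 were chosen after the values were seen, as the wild-type tumor arrays highest for Il1b. Knockout tumor 81, above array 9 for Il1b, stayed in. Signs of genes that ran with Il1b follow from the choice. Without wild-type tumor 9, 65 and 82, the values were Il1b 0.84, Il1r2 0.45, Il6 0.95, Il11 0.43 and Osm 0.83 for genotype in tumor. For stroma minus tumor they were Il1b 0.23, Il1r2 0.44 and Osm 0.38. For stroma minus tumor in wild-type hosts they were Il1b 0.40, Il1r2 0.57, Il6 0.85 and Osm 0.40. For genotype by tissue they were Il1b -0.33, Il1rn -0.69, Il1r2 -0.27, Il6 -0.032 and Osm -0.041, and for sex label in tumor Il1r2 -0.17. Without wild-type stroma 65 and 82, the values were Il6 -0.0081 for stroma minus tumor and Il11 0.065 for genotype by tissue. With normexp correction with quantile scaling, the values were Il1rn -0.37 for genotype by tissue. With quantile scaling, the values were Il1rn -0.23 for genotype by tissue. Leaving out 1 array at a time turned the direction of further values that had not passed. For genotype in stroma the ranges were Il1rn -0.45 to 0.79, Il1r2 -0.23 to 0.41, Lif -0.56 to 0.043 and Il1b -0.17 to 0.93. For stroma minus tumor the ranges were Il6 -0.081 to 0.30. For stroma minus tumor in wild-type hosts the ranges were Osmr -0.0092 to 0.29 and Il1rn -1.09 to 0.15. For stroma minus tumor in knockout hosts the ranges were Il1b -0.26 to 0.40, Il1r2 -0.10 to 0.53 and Osm -0.040 to 0.63. For genotype by tissue the ranges were Il1rn -0.84 to 0.40.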
